A study of Mus musculus with 7 samples.

Results

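The mitochondrial respiratory chain and ATP synthase are built from subunits encoded in both genomes of the cell. In this series of mouse fetal liver RNA-seq, 96 protein-coding genes carried the symbols of such subunits, of 39017 genes listed in each file. The rule that chose them reads only the symbol and the gene type. Of these, 13 were the genes of the mitochondrial DNA (mt-Nd, mt-Co, mt-Cytb and mt-Atp) and 83 were nuclear (Ndufa, Ndufb, Ndufc, Ndufs and Ndufv followed by a digit, Sdha to Sdhd, Uqcr, Cox4 to Cox8, and Atp5). The symbols placed 7 mitochondrial and 36 nuclear genes in complex I, 4 nuclear genes in complex II, 1 and 8 in complex III, 3 and 18 in complex IV, and 2 and 17 in complex V.

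The series compared livers of C57BL/6 embryos at stage E12.5 that differed in Taf10, which encodes a subunit of the general transcription factor TFIID and of the coactivator SAGA. The group labelled TAF10KO held 2 libraries whose titles read lox/lox with EpoCre, whereas the series text gives TAF10lox/KO with EpoR-Cre, so the second allele is not settled by the labels. The group labelled TAF10HET held 3 libraries, all with EpoCre. Replicate 1 was lox/wt and replicates 2 and 3 were wt/ko. The group labelled WT held 2 libraries that were lox/lox and lacked the Cre. Cre and the Taf10 alleles therefore differ together between TAF10KO and WT, while TAF10KO and TAF10HET both carry the Cre. The driver is that of the erythropoietin receptor, active in erythroid cells, and each library was made from the cell suspension of a whole liver, in which other cells keep their alleles. The titles carry 2 date codes: the first covers replicate 1 of each group, and the second covers the other WT and TAF10KO libraries and TAF10HET replicates 2 and 3. What the code dates is not stated, and the kind of heterozygous allele changes with it.

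In the oxidation chain, complex I (NADH dehydrogenase) and complex II (succinate dehydrogenase) pass electrons to ubiquinone, complex III passes them to cytochrome c, and complex IV reduces oxygen. Complex V uses the resulting proton gradient to make ATP. The mitochondrial genes are transcribed as long precursors from both strands of the circular genome and cut apart, mostly at the tRNAs between them, whereas the nuclear subunits are transcribed singly, many under NRF1, GABPA and YY1. Complex II is wholly nuclear. Erythroid precursors rely on mitochondria for haem synthesis and lose the organelle as they mature, and fetal liver at this age is an erythropoietic organ that also holds hepatoblasts.

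Of the 13 mitochondrial reading frames, 3 end without a full stop codon in the genome, and their stop is completed when the poly(A) tail is added. The poly(A) tail is also what mRNA library kits commonly select for. The last bases of these genes are shown beside mt-Nd1, which carries its own stop; capitals mark the stop codon or the single T that starts it (GRCm38, chromosome M).
mt-Co3: tccatttattgatgaggatctT
mt-Nd4: ctaattacaggcctgacaataT
mt-Cytb: aaaatactaaaattatatccaT
mt-Nd1: ggagtaccaccatacataTAG
The stretches lie at chrM:9369-9390, chrM:11523-11544, chrM:15267-15288 and chrM:3687-3707, all on the plus strand. A second feature bears on the counts directly. The frames of mt-Atp8 and mt-Atp6, both subunits of the membrane part of ATP synthase, share 43 bases at chrM:7927-7969, where a read can be given to neither gene alone. The start codon of mt-Atp6 and the stop codon of mt-Atp8 are in capitals.
mt-Atp8 and mt-Atp6: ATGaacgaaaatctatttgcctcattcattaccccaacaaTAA
This stretch is 21.1% of mt-Atp8 and only a small piece of mt-Atp6. The light-strand gene mt-Nd6 overlaps mt-Nd5 on the other strand by 14 bases, and whether strand was used in counting is not given in the sources used here.

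Gene counts ran from 18008391 to 43401474 per library. Taf10 was at 37.8 and 43.9 CPM (counts scaled by library size with TMM factors) in the TAF10KO libraries, at 63.0 to 78.1 in TAF10HET and at 72.0 and 96.5 in WT, so both TAF10KO libraries were below the others (TAF10KO minus WT −1.04 log2, adjusted p = 0.0542 in edgeR's quasi-likelihood test). Erythroid and hepatocyte markers were abundant in every library, and 5 of 6 germ cell markers stayed under 1 CPM. TAF10HET replicate 1 stood apart: 15 cardiac and skeletal muscle markers summed to 187.1 CPM there and to 12.06 to 22.81 elsewhere, with Nppa at 0 in all libraries. In that library the mitochondrial ribosomal RNAs mt-Rnr1 and mt-Rnr2 stood at 2106 and 4035 CPM, against 357 to 661 and 419 to 1470 in the other libraries. Results that rest on it are given with and without it. All 9 mesenchymal markers were lower on the second date code, with sums of 198.1 to 356.3 CPM against 1432 to 2604.

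The mitochondrially encoded transcripts were by far the more abundant compartment, and they were scarcest, relative to the nuclear subunits, in both knockout livers. Per kilobase of transcript, averaged over the 7 libraries, mt-Co1 reached 7294 CPM, mt-Co2 6850 and mt-Co3 5835; these encode the catalytic core of complex IV. The lowest of the tested mitochondrial genes was mt-Nd6 at 870 CPM per kilobase. Only one nuclear subunit exceeded that level: Atp5b, the catalytic beta subunit of ATP synthase, at 919. Next among nuclear genes came Atp5a1 (446), Atp5g3 (444), Cox6b1 (405), Atp5k (403) and Uqcrh (390). These levels compare genes per length and ignore differences in how well each gene can be mapped.

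Summed over the 13 genes, mitochondrial transcripts stood at 27378 CPM in TAF10KO replicate 1, against 37273 in WT and 38949 in TAF10HET of the same date code. On the second date code the sum was 36943 CPM in TAF10KO replicate 2, 46158 in WT and 41639 and 40742 in the 2 TAF10HET libraries. Within each date code the knockout library was the lowest. The nuclear sum was 10256 CPM in the knockout, 11292 in WT and 11653 in TAF10HET on the first code, and 12736, 13856, 13211 and 13290 on the second, so here too the knockout was lowest, by less. TAF10KO minus WT, in log2 of these sums, came to −0.45 and −0.32 on the 2 date codes for the mitochondrial genes, and to −0.14 and −0.12 for the nuclear ones.

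The ratio of mitochondrial to nuclear subunit counts does not depend on how libraries are scaled. It was 2.67 and 2.90 in the TAF10KO libraries, 3.34, 3.15 and 3.07 in TAF10HET, and 3.30 and 3.33 in WT. The groups did not overlap between TAF10KO and the rest, while TAF10HET spanned the WT values (means 2.79 ± 0.16, SD, n = 2; 3.19 ± 0.14, n = 3; 3.32 ± 0.02, n = 2). TAF10HET reached the WT values only through replicate 1 (3.34). Its replicates 2 and 3 (3.15 and 3.07) lay below both WT libraries and above both TAF10KO libraries. No test was made of a sum over chosen genes. In a bulk liver, fewer cells of a type and less RNA per cell cannot be told apart. The erythroid marker sum was also lowest in the knockout on each date code (25355 CPM against 32040 and 38684, and 35831 against 43888 to 52618). So was the macrophage sum (285 CPM against 349 and 368, and 159 against 218 to 256). The knockout had the highest neutrophil and granulocyte sum (462 CPM against 294 and 358, and 756 against 375 to 506) and the highest endothelial sum (575 against 402 and 427, and 273 against 213 to 251). The megakaryocyte sum was also highest there (596 CPM against 505 and 576, and 764 against 538 to 578). Other sums kept no such order. The hepatocyte sum was highest in the knockout on the first code (20146 CPM against 17790 and 19795) and lowest on the second (12617 against 12712 to 16398). The mesenchymal sum lay between the others on the first code (1667 against 1432 and 2604) and was highest on the second (356.3 against 198.1 to 223.2). Reads that mapped to several places were 14.07% in TAF10KO replicate 1, the lowest share, and 22.25% in WT replicate 2, the highest. The part of these in the difference was not tested.

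**Figure D1:**
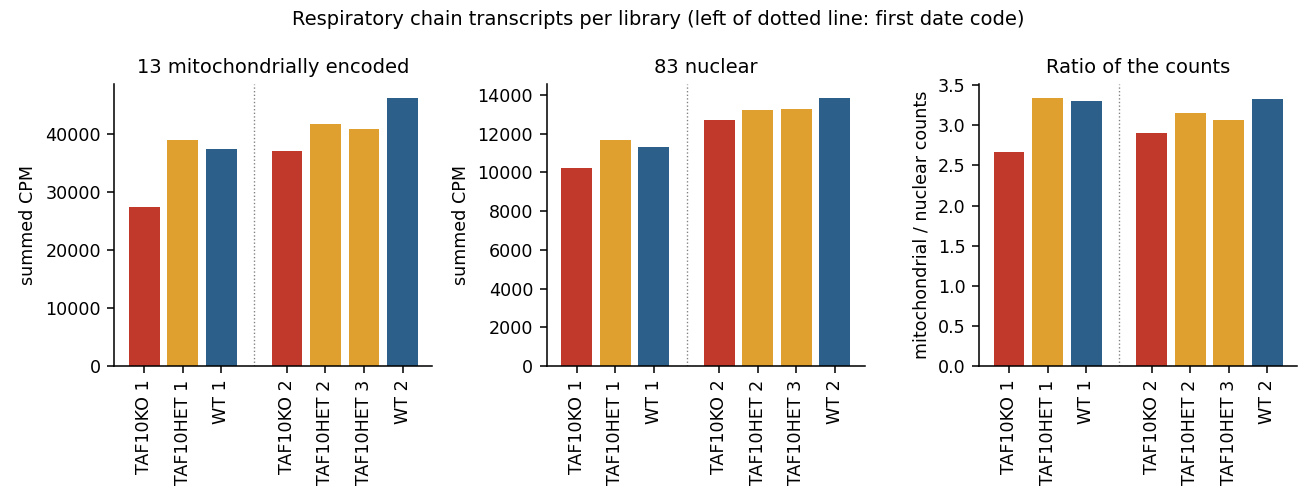
Summed CPM of the 13 mitochondrially encoded genes (left) and the 83 nuclear genes (middle) and the ratio of their counts (right) in each of the 7 libraries, 1 bar a library, coloured by genotype, with the first date code left of the dotted line. The knockout bar (red) is the lowest of its date code in all 3 panels, with ratios of 2.67 and 2.90.

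Gene by gene, all 12 mitochondrial genes that passed the low-count filter had a negative estimate for TAF10KO against WT, from −0.64 for mt-Nd3 to −0.26 for mt-Co2. Their median was −0.48 log2, a ratio of 0.716, beside 0.028 over the 15800 genes tested. None passed the threshold of 0.05 in edgeR's quasi-likelihood test with genotype and date code in the model and Benjamini-Hochberg adjustment over all genes. Of all genes, 0.481% were called higher and 0.127% lower in this comparison. The smallest adjusted p was 0.0628, for mt-Nd4, and 9 of the 12 had an unadjusted p under 0.05, as did 17.9% of all genes. The 12 genes come from one small genome and are not independent of each other.

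Within the pairs of libraries the order held on each date code. All 12 were lower in TAF10KO than in WT on the first code (median −0.52) and on the second (−0.39), where 30.4% of all genes tested were lower on both. In 7 of the 12 both knockout libraries lay below all 5 others, against 7.18% of all genes: mt-Nd1, mt-Nd2, mt-Nd4, mt-Nd5, mt-Nd6, mt-Cytb and mt-Co3. For mt-Co1, mt-Co2, mt-Atp6, mt-Atp8 and mt-Nd3 the groups overlapped.

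The complex I genes mt-Nd1 and mt-Nd4, which encode subunits of its membrane arm, show the pattern most plainly. mt-Nd4 was at 1995 and 2246 CPM in TAF10KO, 3011, 3218 and 3118 in TAF10HET, and 2950 and 3232 in WT. The heterozygous and wild-type values overlapped, and both knockout values were below them. mt-Nd4 differed from TAF10HET by −0.54 log2 (SE 0.091, adjusted p = 0.0375, edgeR) and from WT by −0.54 (SE 0.098, adjusted p = 0.0628). It was the only mitochondrial gene called lower against TAF10HET, where 0.456% of all genes were called lower and 1.15% higher. That call is lost with genotype alone in the model (adjusted p = 0.673), and (adjusted p of 0.059 to 0.181) with non-robust dispersions, in a fit of the 2 groups alone, or without any 1 of the WT libraries or of TAF10HET replicates 2 and 3. mt-Nd1 was at 2206 and 2480 CPM in TAF10KO, 3585, 3023 and 3083 in TAF10HET, and 3248 and 3606 in WT. Its difference from WT was −0.56 and −0.54 within the 2 date codes.

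mt-Cytb, the only mitochondrial subunit of complex III, was at 2277 and 3206 CPM in TAF10KO, 3405, 3948 and 3825 in TAF10HET, and 3299 and 4493 in WT. Its fitted difference from WT was −0.51 (adjusted p = 0.101), with both knockout libraries under the lowest of the rest. In complex IV mt-Co3 had a more negative estimate than mt-Co1 and mt-Co2, with wide standard errors. mt-Co3 was at 2745 and 4432 CPM in TAF10KO against 4559 and 5566 in WT (−0.51, SE 0.189). mt-Co1 (8450 and 11450 against 10458 and 13238) had −0.26 (SE 0.111). mt-Co2 (3513 and 4933 against 4482 and 5566) had −0.26 (SE 0.133). Within the first date code mt-Co3, mt-Co1 and mt-Co2 had −0.73, −0.31 and −0.35, and within the second −0.33, −0.21 and −0.17. Whether the 3 differ from each other was not tested. mt-Nd3, a small complex I subunit, had the most negative estimate and also the widest spread, at 292 and 950 CPM in TAF10KO against 537 and 1311 in WT. The light-strand gene mt-Nd6 was at 415 and 363 CPM in TAF10KO, 442 to 551 in TAF10HET, and 491 and 453 in WT (−0.28, adjusted p = 0.182).

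**Figure D2:**
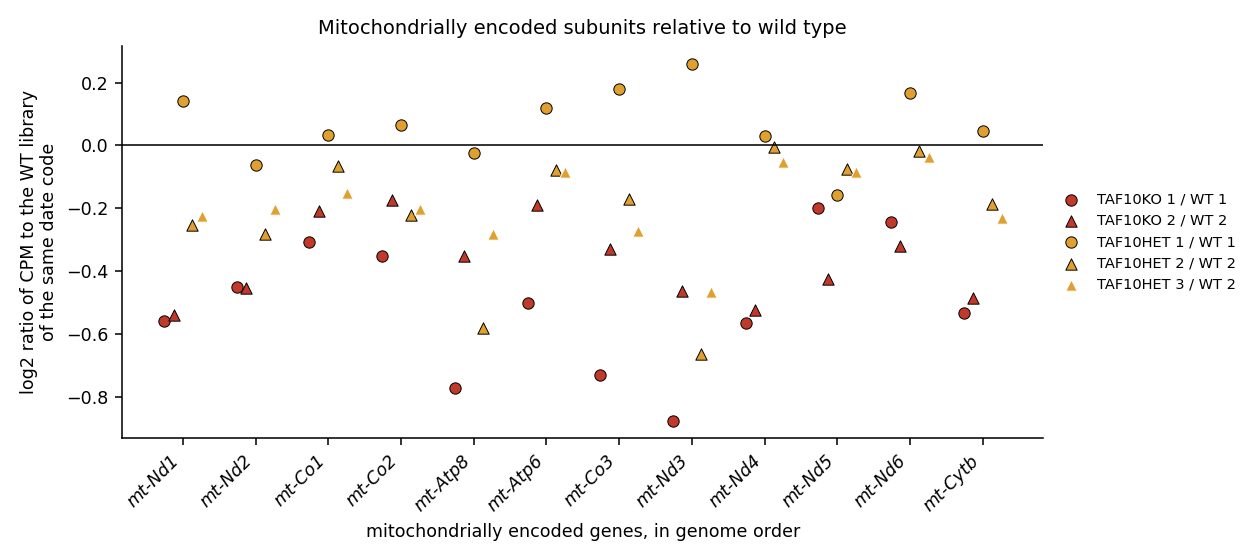
log2 ratio of CPM to the WT library of the same date code (vertical axis) for the 12 tested mitochondrially encoded genes in genome order, for the 2 TAF10KO libraries (red) and the 3 TAF10HET libraries (yellow); circles are the first date code, triangles the second. Every red point lies below 0, and the TAF10HET points lie on both sides of it on the first date code and below it on the second.

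Heterozygous livers showed no called difference. No member of either compartment was called in TAF10HET against WT, where 0.00633% of genes were called higher and 0% lower. At an unadjusted p under 0.05 there were 0 of 12 mitochondrial and 2 of 80 nuclear genes, against 3.35% of all genes, and DESeq2 also called 0 members. The mitochondrial median was −0.092, with 0.056 on the first date code and −0.21 on the second. Without TAF10HET replicate 1, which stands apart, it was −0.23. Against TAF10HET, the median of the knockout was −0.33 for mitochondrial and −0.12 for nuclear genes. On the first date code these were −0.59 and −0.26, and on the second −0.16 and −0.018. Leaving out TAF10HET replicate 1 brought the fitted medians to −0.21 and −0.035. The TAF10KO comparisons share the knockout libraries, so they do not support each other.

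How many members were called in TAF10KO against WT turned on single libraries. Without TAF10HET replicate 1, which enters this comparison only through the date term and the shared estimate of spread, 7 mitochondrial genes were called lower (mt-Nd1, mt-Nd2, mt-Nd3, mt-Nd4, mt-Cytb, mt-Co3 and mt-Atp8) at the same median of −0.48. In that fit 2.37% of all genes were called lower and 3.28% higher. DESeq2 on all libraries called 5 lower (mt-Nd1, mt-Nd2, mt-Nd4, mt-Nd5 and mt-Cytb), with 1.68% of all genes lower and 2.05% higher. Without TAF10KO replicate 2 there were 6, with 1.44% of all genes lower, and the median was −0.61. Without TAF10KO replicate 1 there were 2, with 3.47% of all genes lower, and the median was −0.25. Without either WT library no gene at all was called.

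Copies of mitochondrial DNA in the nuclear genome share sequence with several of these genes. Of all 50-base windows in its annotated transcript, mt-Co2 shared 100% with the transcript of another gene. The share was 99.9% for mt-Co3, 99.5% for mt-Atp6, 98% for mt-Nd3, 62.2% for mt-Nd4 and 51.1% for mt-Co1. These genes were counted all the same, with 883802 counts for mt-Co2 and 845590 for mt-Co3 over the 7 libraries. The part of shared sequence in any count was not tested. mt-Nd1, mt-Nd6, mt-Cytb and mt-Atp8 shared no such window, and mt-Nd2 and mt-Nd5 shared 8.19% and 7.61%. The 43 bases that mt-Atp8 shares with mt-Atp6 are shorter than a window, so this count misses them. Copies without an annotated transcript were not searched. In the genes with few or no shared windows the differences from WT were −0.55 for mt-Nd1, −0.54 for mt-Atp8, −0.51 for mt-Cytb, −0.45 for mt-Nd2, −0.31 for mt-Nd5 and −0.28 for mt-Nd6. mt-Nd4l, which encodes a small complex I subunit and shares 98.8% of its windows with the pseudogene Gm10222, had 0 to 2 counts in every library and was not tested. Gm10222 itself had 0 to 9 counts.

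The nuclear subunits sat slightly below WT in the knockout and almost none were called. Of 83 genes 80 were tested, and 66 of these had a negative estimate, with a median of −0.15 log2 (ratio 0.903). On the 2 date codes the medians were −0.19 and −0.11, and 54 of the 80 were lower on both codes, beside 30.4% of all genes. In 7 genes (Ndufa5, Ndufb2, Sdhd, Uqcr10, Uqcrfs1, Atp5f1 and Atp5h) both knockout libraries lay below all others, a share near the 7.18% of all genes. By complex, the medians were −0.14 in complex I, −0.17 in II, −0.24 in III, −0.036 in IV and −0.15 in V. The mitochondrial medians of the same complexes were −0.50 in I, −0.51 for the single gene in III, −0.26 in IV and −0.44 in V. In complex I, the 7 core nuclear subunits, which carry the flavin and the iron-sulfur clusters, had a median of −0.084, and the 29 accessory ones −0.14.

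**Figure D3:**
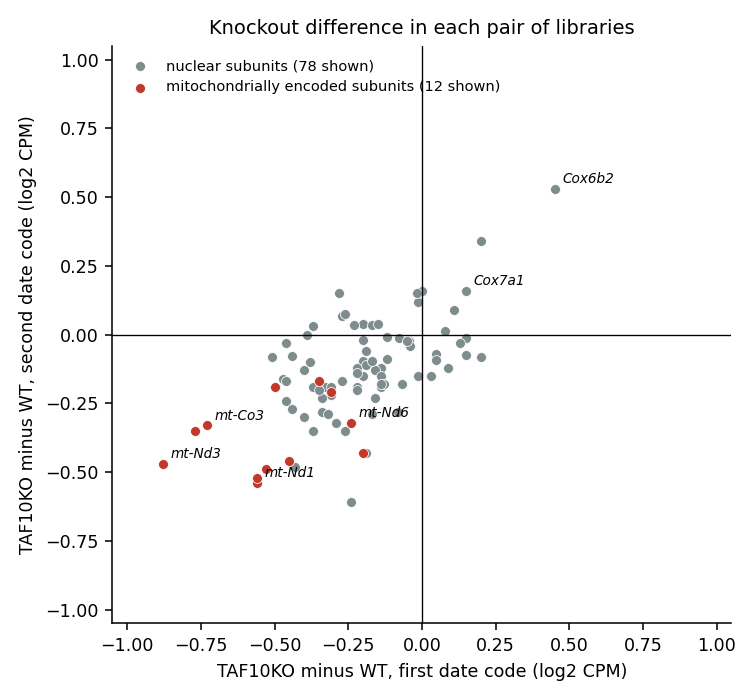
TAF10KO minus WT in log2 CPM on the first (horizontal) and second (vertical) date code for 12 mitochondrially encoded (red) and 78 nuclear (grey) genes. All red points are in the lower left, below 0 on both axes, and Cox6b2 is at the upper right; Cox4i2 (1.30 and 1.45) and Cox6a2 (1.31 and 3.10) lie outside the axes and are not drawn.

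Of the 80 nuclear genes tested, 1 was called in TAF10KO against WT, and it rose. In that comparison 0.481% of all genes were called higher. The gene was Cox6b2, the isoform of a complex IV subunit known mainly from testis. It was also the 1 nuclear gene of 80 called against TAF10HET, a share near the 1.15% of all genes called higher there. Cox6b2 was at 56.1 and 93.6 CPM in TAF10KO, 40.3, 72.7 and 69.3 in TAF10HET, and 41.1 and 64.9 in WT. On each date code the knockout was highest, while the groups overlapped across codes. The difference from WT was 0.49 log2 (SE 0.077, adjusted p = 0.04996, edgeR) and from TAF10HET 0.42 (SE 0.070, adjusted p = 0.0358). The first of these is at the edge of the threshold: it was missed with the mitochondrial or the globin genes left out of the library totals (adjusted p of 0.05019 and 0.05016), with non-robust dispersions (0.055), and with genotype alone in the model (1.0), and without either WT library or TAF10HET replicate 2 or 3 (0.107 to 0.752). Its size ranged from 0.43 to 0.54 over the alternatives. The call against TAF10HET was lost in 6 of 17 alternatives: with genotype alone in the model (adjusted p = 1.0), in a fit of the 2 groups alone, and without either WT library or TAF10HET replicate 2 or 3 (0.118 to 0.186). The common isoform Cox6b1 was at 153 to 228 CPM, with a difference from WT of −0.22 (adjusted p = 0.356). The germ cell markers summed to 1.09 and 1.54 CPM in TAF10KO and to 1.42 and 2.04 in WT.

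Tissue isoforms of complex IV otherwise followed what is known of liver, with the broadly expressed form far above the other. Cox4i1 was at 193 to 286 CPM, Cox6a1 at 178 to 262, Cox7a2 at 98.0 to 157, Cox7a2l, a factor of supercomplex assembly, at 104 to 128, Cox7b at 123 to 218 and Cox8a at 158 to 192. The muscle form Cox7a1 reached 0.76 to 1.52 CPM, Cox8b had a reading in only 1 library (0.046 CPM), and Cox7b2 and Cox8c were at 0 in all 7 libraries. Those last 3 genes did not pass the filter. Of the low forms, 2 had large positive estimates in the knockout. Cox4i2, the isoform known from lung and induced in low oxygen, was at 1.28 and 1.91 CPM in TAF10KO, 0.88, 1.20 and 0.76 in TAF10HET, and 0.47 and 0.65 in WT. Both knockout libraries were above all others (1.49 log2 against WT, SE 0.350, adjusted p = 0.108). Cox6a2, a heart and muscle form, was at 0.38 and 1.75 CPM in TAF10KO, 0.57, 0.27 and 0.12 in TAF10HET, and 0.11 and 0.14 in WT (2.95 log2, SE 0.960, adjusted p = 0.188). The Cox6a2 estimate rests largely on TAF10KO replicate 2. Without TAF10HET replicate 1, Cox4i2, Cox6a2 and Cox6b2 were all called higher against WT (adjusted p of 0.0427, 0.0285 and 0.00951); 3 of 80 nuclear genes is near the 3.28% of all genes called higher in that fit. Muscle markers summed to 22.81 and 16.54 CPM in TAF10KO and to 21.32 and 12.06 in WT.

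**Figure D4:**
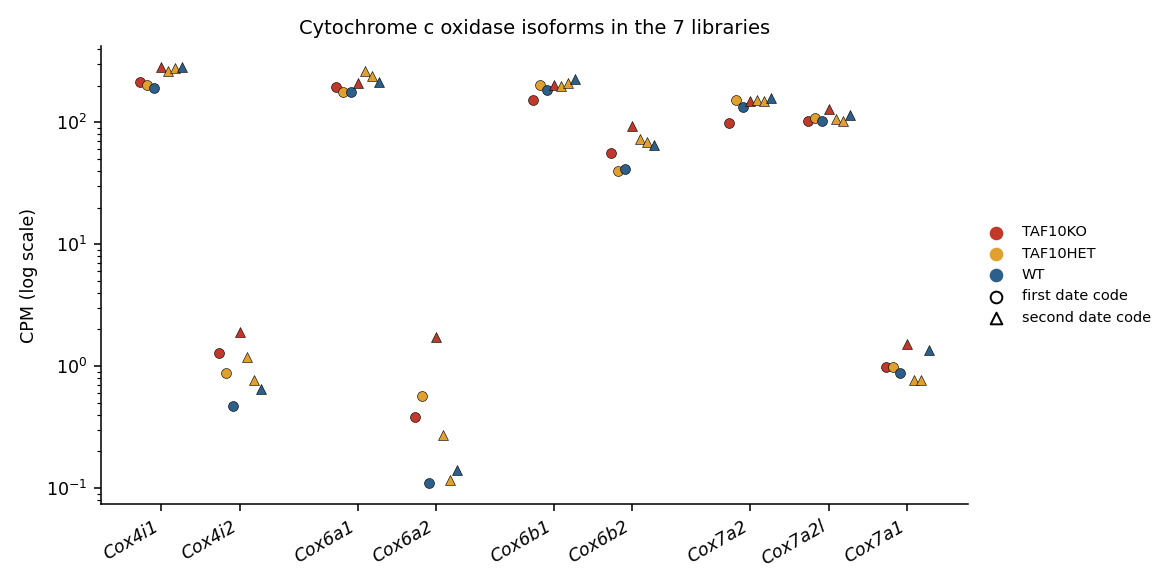
CPM (log axis) of complex IV isoforms in each library, with circles for the first date code, triangles for the second and colour for genotype. The broadly expressed isoforms lie near 100 CPM or above, Cox6b2 lies between 40.3 and 93.6, and Cox4i2, Cox6a2 and Cox7a1 lie below 2.

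In the remaining complexes no nuclear gene passed the threshold, and the members with the largest estimates are given as values. In complex I these were Ndufv3, an accessory subunit of the NADH-binding module (0.28, adjusted p = 0.221; both knockout libraries above the rest), and Ndufb2, an accessory subunit of the membrane arm present at only 5.19 to 8.03 CPM (−0.42, adjusted p = 0.267). The most abundant complex I symbol per kilobase was Ndufa4 (382), which is now known to belong to complex IV. Ndufa4 was at 116 and 180 CPM in TAF10KO, 186, 196 and 193 in TAF10HET, and 160 and 201 in WT (−0.30, adjusted p = 0.295).

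Ndufa4l2 is a relative of Ndufa4 that is known to be induced by hypoxia; it is outside the rule. Ndufa4l2 was at 15.2 and 41.8 CPM in TAF10KO, 1.66, 7.11 and 6.22 in TAF10HET, and 1.60 and 4.87 in WT. It rose by 3.18 log2 against WT (adjusted p = 0.00314) and 2.82 against TAF10HET (adjusted p = 0.00125), with no overlap of the knockout with the others. The 2 relatives thus had estimates of opposite sign.

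Complex II gave Sdha, the flavoprotein that oxidises succinate, at 304 to 329 CPM in all 7 libraries, a range narrower than that of any mitochondrial gene (−0.042, adjusted p = 0.815). Its partner Sdhd, a membrane anchor and the most abundant of the 4 per kilobase (148), was at 148 and 160 CPM in TAF10KO, 203, 185 and 188 in TAF10HET, and 196 and 196 in WT. Both knockout libraries lay below the rest (−0.35, SE 0.088, adjusted p = 0.122). Sdhb, the iron-sulfur subunit, had −0.30 and Sdhc −0.044. In complex III the estimates ran from −0.34 for Uqcrh, the hinge protein, to −0.015 for Uqcrc1, a core protein. In complex IV the most negative was Cox7a2 (−0.25). In complex V Atp5j2, a subunit of the membrane part, had the most negative one (113 and 162 CPM in TAF10KO, 152 and 226 in WT; −0.46, SE 0.118, adjusted p = 0.1302). The largest positive one was Atp5s (0.073), at 12.8 to 15.6 CPM, which the symbol places here although it is known as a coupling factor rather than a structural subunit. Atp5b was at 1530 to 1966 CPM (−0.020). Without TAF10HET replicate 1, 7 nuclear genes were called lower against WT: Atp5j2, Atp5k, Ndufa3, Ndufb7, Ndufs6, Sdhd and Uqcrh, where 2.37% of all genes were. DESeq2 on all libraries called 2 of the 80 lower, Atp5j2 and Sdhd, a share near the 1.68% of all genes.

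Far more nuclear subunits were called between the date codes than between genotypes. In the same model, 39 of 80 nuclear genes were called higher on the second code and 0 lower, beside 18.7% of all genes higher and 22.7% lower. The median was 0.25 log2 (all genes: 0.019). In 40 of the 80, every library of the second code was above every library of the first, against 18.8% of all genes. The genes called higher were spread over the complexes: 22 of 36 in complex I, 1 of 4 in II, 3 of 8 in III, 8 of 15 in IV and 5 of 17 in V. In complex I they were 19 of 29 accessory and 3 of 7 core subunits.

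The 8 with the smallest adjusted p were Cox6b2 (0.75), Ndufb6 (0.90), Uqcrc1 (0.60), Uqcr11 (0.67), Ndufb4 (0.79), Cox4i1 (0.46), Atp5k (0.69) and Ndufa11 (0.45), in log2, with adjusted p of 0.000278 to 0.00228 in edgeR's test. Ndufb6 encodes an accessory subunit of the complex I membrane arm. Ndufb6 was at 22.9, 25.0 and 25.3 CPM on the first code and at 42.0, 43.7, 49.3 and 45.2 on the second, with no overlap. Of its annotated exon bases, 39% also lie in Smim27 on the other strand. How reads there were counted is not known, as whether strand was used is not given. Uqcr11, a small complex III subunit, was at 69.2, 86.4 and 78.7 CPM on the first code and at 122, 133, 144 and 107 on the second. Uqcrc1 was at 199 to 211 CPM and then at 298 to 324. The codes did not overlap in either gene. For Uqcrc1 the gap between the codes was also wider than the range within each code, which for Uqcr11 it was not.

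Mitochondrial genes moved less evenly between the codes. Their median was also 0.25, but 5 of 12 were called higher (mt-Nd3 by 1.07, mt-Atp8 by 0.58, mt-Cytb by 0.36, mt-Co1 by 0.31 and mt-Nd2 by 0.30) and mt-Nd6 was called lower (−0.22, adjusted p = 0.0412). mt-Nd1 had an estimate of 0.001 (adjusted p = 0.997). mt-Nd3 was at 292, 643 and 537 CPM on the first code and at 827, 948, 1311 and 950 on the second. Without TAF10HET replicate 1, 8 were called higher and 0 lower, where 2188 of all 15701 genes were higher and 2994 lower. With upper-quartile scaling, which moves the median of all genes to −0.061, 1 was called higher and the median was 0.17. There 1832 of all 15800 genes were higher and 4056 lower. Without TAF10HET replicate 3, 2 mitochondrial genes were called higher, where 1737 of all 15827 genes were higher and 2849 lower. Fewer mitochondrial genes were also called higher without either TAF10KO library. Without either WT library fewer mitochondrial and nuclear genes were called higher, as were fewer of all genes tested. The nuclear median was 0.18 to 0.34 with each library left out in turn. The fall of the mesenchymal sum, and of all 10 endothelial markers, between the codes accompanied these differences, while 8 of 10 hepatocyte markers were called lower and 8 of 13 erythroid markers higher; their part in the result was not tested.

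**Figure D5:**
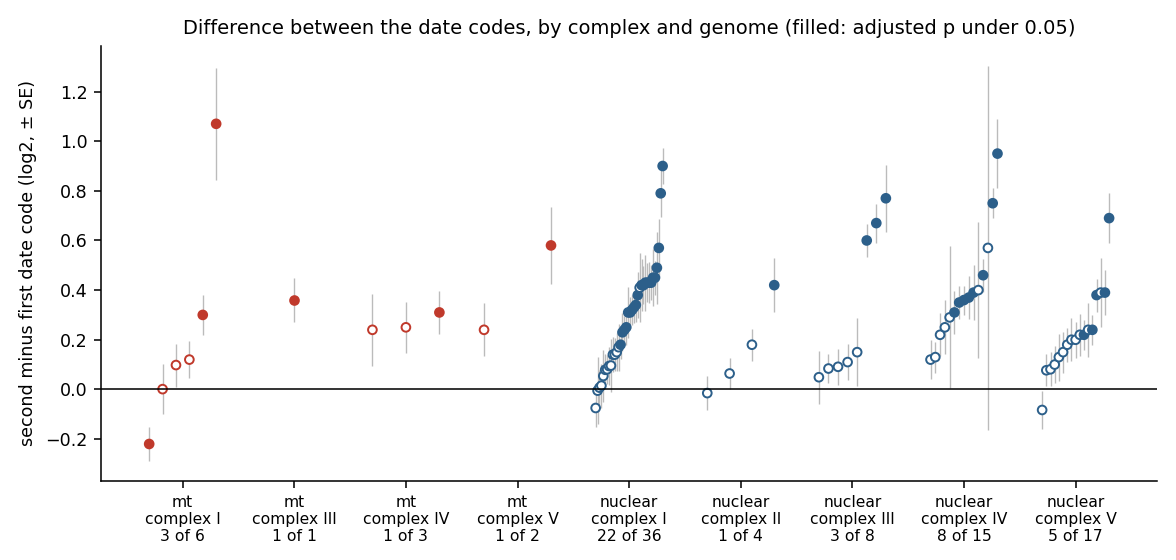
Second minus first date code in log2, with its standard error, for each tested mitochondrially encoded (red) and nuclear (blue) gene, by complex; filled points have an adjusted p under 0.05 and the counts are given under the axis. The nuclear points are almost all above 0 (76 of 80), with 22 of 36 filled in complex I and 5 of 17 in complex V.

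Promoters of the nuclear subunits were compared with all promoters in the RefSeq table (GRCm38.p6, 250 bases before to 50 after the start), which held 66 of the 83 genes and 27025 genes in all. The NRF1 sequence GCGCATGC, searched on both strands, was present in 15.2% of the members and 3.05% of all genes (5.54% of genes tested). The GABPA sequence CCGGAAG was in 24.2% against 9.93% (18.4%), YY1 AAGATGGC in 13.6% against 3.19% (4.88%), the hypoxia factor core ACGTG in 24.2% against 21.8% (28.3%), and the TATA box TATAAA in 10.6% against 15.7% (9.25%). Among members called higher on the second date code the NRF1 sequence was in 8 of 34, and among those not called in 2 of 30; for GABPA these were 7 of 34 and 9 of 30. For YY1 these were 6 of 34 and 3 of 30. The surroundings of the NRF1 sequence are shown for some members called higher on the second code, with NRF1 and GABPA matches in capitals. The NRF1 sequence overlaps its own reverse complement, so a run of 10 capitals holds a match on each strand.
Atp5k: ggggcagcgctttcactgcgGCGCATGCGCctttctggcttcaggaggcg
Ndufa11: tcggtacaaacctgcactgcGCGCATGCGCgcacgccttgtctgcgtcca
Cox6a1: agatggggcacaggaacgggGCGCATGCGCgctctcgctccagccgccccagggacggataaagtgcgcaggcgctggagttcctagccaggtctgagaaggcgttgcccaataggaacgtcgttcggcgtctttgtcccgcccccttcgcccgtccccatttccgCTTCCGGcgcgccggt
Ndufa6: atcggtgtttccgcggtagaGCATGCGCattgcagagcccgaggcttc
Sdhb: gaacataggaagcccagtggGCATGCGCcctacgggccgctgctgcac
They lie at chr5:108434420-108434469 (minus strand), chr17:56717682-56717731 (plus), chr5:115348959-115349140 (minus), chr15:82354347-82354394 (minus) and chr4:140961197-140961244 (plus), all within the 250 bases before the start. A match is a description of letters and says nothing of binding.

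Other genes of the pathway gave the setting. The 76 tested proteins of the mitochondrial ribosome, which translates the 13 mitochondrial messages, had a median of −0.19 in TAF10KO against WT with 0 called, and 38 higher and 1 lower between the date codes, among them Mrpl57 (0.62) and Mrpl34 (0.45). None of 14 complex I assembly factors and none of 29 for complexes II to V was called against WT (both medians −0.14). Of the 17 electron carriers and linked enzymes 0 were called (−0.032), cytochrome c1 (Cyc1) having −0.043 and cytochrome c (Cycs) −0.33. Among 17 genes of mitochondrial DNA replication and transcription 0 were called against WT (−0.086). Tfam, which packages and helps transcribe the mitochondrial genome, was at 76.5 and 84.2 CPM in TAF10KO and 90.2 and 92.7 in WT (−0.19, adjusted p = 0.268). Primpol, a primase-polymerase, rose against TAF10HET (0.58, adjusted p = 0.0254).

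Of 17 genes of mitochondrial RNA processing none was called (−0.054); Lrpprc, which stabilises mitochondrial messages, had −0.054. None of 11 regulators of respiratory genes was called against WT. Between the date codes 4 of them were higher, including Myc (0.66), Gabpb1 (0.28) and Yy1 (0.28), and 3 were lower, the hypoxia factor subunits Epas1 (−1.31) and Hif1a (−0.43) and the coactivator Ppargc1a (−0.47). Of 10 genes that switch respiration in low oxygen, 2 rose in TAF10KO against WT: Ndufa4l2 and Bnip3 (1.49, adjusted p = 0.00458), a receptor for the removal of mitochondria. Bnip3 was at 136 and 250 CPM in TAF10KO, 44.1, 73.1 and 60.0 in TAF10HET, and 51.3 and 83.6 in WT, with no overlap. Against TAF10HET, Pdk1 (0.68, adjusted p = 0.0144), a kinase that turns off pyruvate dehydrogenase, and the mitochondrial protease Lonp1 (0.59, adjusted p = 0.0301) rose as well. These lists were compiled with earlier results of these data known.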

How the data were processed

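Whole fetal livers were profiled by mRNA sequencing (TruSeq version 2, per the labels). The authors deposited 1 table of raw gene counts per library, whole reads per Ensembl gene; TopHat2 2.0.8, DESeq2 and the build mm10 appear in the submitters' processing notes, and the counter was not given in the sources used here. Genes were named from GENCODE M21 (37607 of 39017; the unmatched held 0.212% of counts), and summary lines were left out. The members and lists were chosen with earlier results of these data known.

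Counts were fitted with edgeR 4.0.16 (filterByExpr, TMM, robust quasi-likelihood) with genotype and date code as terms over all 7 libraries; tests were two-sided with Benjamini-Hochberg adjustment over 15800 genes, and the code was checked on simulated counts. CPM values are TMM-scaled, and within-code differences use log2 CPM with a prior count of 2. Over these genes, deviations from the genotype mean correlated between libraries of different genotypes at 0.40 to 0.74 within a date code and −0.74 to −0.40 across codes; groups of 2 fix part of this. Every same-code pair was above 0.1, so the date code of the titles was kept as the pairing. Biological variation was 13.4% with the date term and 33.9% without. Nothing says how many embryos gave a library, so p-values measure the spread between these libraries. Named genes were all mitochondrial members, called nuclear members (up to 8 per direction), per complex the most abundant and the most changed, isoform pairs, Sdh genes, and list genes that were called (up to 3) or most abundant; others were singled out after their values were seen. Shared sequence was counted in 50-base windows of GENCODE M21 transcripts. Alternatives were other scalings and filters, DESeq2 1.42.0, other dispersions and samples, and each library left out.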

Additional observations from a re-analysis of the deposited data

How the results depend on the processing

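Without the replicate block, that is with the pairing by date code dropped and genotype alone in the model, edgeR called 0 members and 0 genes in each genotype comparison (729, 96 and 854 genes at an unadjusted p under 0.05), so the calls of Cox6b2 (1 against WT, 1 against TAF10HET) and mt-Nd4 were lost. The direction of every median of TAF10KO against WT and against TAF10HET was kept in all 17 alternatives. Leaving out 1 library in turn gave, for TAF10KO against WT, 0 to 7 mitochondrial genes lower, 0 to 3 nuclear higher and 0 to 10 nuclear lower, with medians of −0.61 to −0.25 and −0.26 to −0.076. Against TAF10HET it gave 0 to 4 mitochondrial lower, 0 to 3 nuclear higher and 0 to 11 nuclear lower, with medians of −0.57 to −0.20 and −0.26 to −0.035. For TAF10HET against WT the mitochondrial median ran from −0.23 to −0.040. For the date codes it gave 0 to 8 mitochondrial higher, 0 to 1 lower, 14 to 49 nuclear higher and 0 to 1 lower, and a mitochondrial median of 0.13 to 0.39. The summed levels of TAF10KO against WT ran from −0.47 to −0.32 (mitochondrial) and −0.17 to −0.12 (nuclear). The number of calls changed with the library left out, for members and for all genes. Without TAF10HET replicate 1, 7 mitochondrial and 7 nuclear genes were called lower against WT and 3 nuclear higher. In that fit 372 of all 15701 genes were lower and 515 higher. Without TAF10HET replicate 2 or 3, 0 members were called against WT. Of all genes, 5 and 1 were then lower and 26 and 12 higher. With DESeq2, 5 mitochondrial and 2 nuclear genes were lower against WT, and 5 and 5 against TAF10HET. Of all 15800 genes, DESeq2 called 265 lower and 324 higher against WT, and 320 and 370 against TAF10HET. With no filter on low counts there were 7 and 3 lower and 3 nuclear higher against WT. Against TAF10HET there were 4 and 7 lower and 3 higher. Of all 27480 genes in that fit, 394 were lower and 1005 higher against WT, and 538 and 960 against TAF10HET. In fits of only the 2 groups compared there were 7 mitochondrial lower, 3 nuclear higher and 1 lower against WT. Of all 15691 genes there, 332 were higher and 221 lower. Against TAF10HET such a fit gave 0 mitochondrial lower and 0 nuclear higher, with 21 higher and 5 lower of all 15706 genes. The nuclear count higher against WT was 0 when mitochondrial or globin genes were taken out of the totals. It was also 0 with dispersions fitted non-robustly, where 0 mitochondrial genes were lower against TAF10HET. Upper-quartile factors left 1 mitochondrial gene higher between the date codes, at a median of 0.17, with 1832 of all 15800 genes higher. The cause of these changes was not tested. Single-digit CPM levels (Ndufb2, Cox4i2, Cox6a2, Cox7a1) limit the isoform comparison, and 2 libraries a group limit every genotype call.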
